A study of Mus musculus with 16 samples.

Results

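The 39 genes described here encode proteins of the cell cycle and of DNA replication. They were taken by symbol from a list of such genes, with no measured value in the rule, and all 39 were found among the 78317 genes listed. RNA was measured by poly(A) sequencing in 16 liver samples of wild-type C57BL/6J mice, an inbred laboratory strain. Females and males ate either a normal diet from LabDiet with 4.5% of its calories from fat or a high fat diet from Research Diets with 60% of its calories from fat, and each of the 4 groups held 4 samples. All mice arrived at 6 weeks of age, were housed in groups and ate their diet for 10 weeks. The diets came from different makers and can differ in more than fat. The series asks what the high fat diet does in the liver of each sex. RNA came from powdered whole liver, so every value is a mix over hepatocytes and all other cells of the organ, and fewer cells of a type cannot be told apart from less RNA per cell.

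A dividing cell passes from G1, where D and E cyclins drive entry, through S phase, where DNA is copied, into mitosis. Before S phase, Cdc6 and Cdt1 load the Mcm2 to Mcm7 helicase onto DNA, and Mcm10, Cdc45 and the GINS complex turn it into an active fork. In G1 the DREAM complex, with repressive E2F factors, holds many of these genes down, and B-MYB and FOXM1 raise those of mitosis later. Most hepatocytes of an adult liver are out of the cycle but can re-enter it, as after partial removal of the organ.

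The libraries held between 22228115 and 41420589 expected counts. The labelled tissue showed in its main marker: Alb, the albumin of hepatocytes, lay between 25496 and 62840.2 TPM (a share of the library's transcripts, corrected for gene length) in all 16 livers. All libraries carry batch number 1 in the labels. Replicates 2 and 3 of the males on the high fat diet were closer to each other than any other pair within a group, with a chi-square per gene of 4.00 against 20.7 for the next closest pair. They are counted as 2 samples, as labelled, since their difference was above counting noise, but that does not show 2 animals, and whether they are separate mice was not tested. Results were also computed with them averaged. Nothing in the labels ties mice to cages, so the p-values measure the spread between these 16 livers.

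Most of the genes were near the lower end of what this depth can measure. Of the 39, 18 had a mean under 1 TPM and 4 had a mean above 5 TPM. Those 4 were Pcna, the sliding clamp of the replication fork, with 31.6 TPM, Ccnd1, the G1 cyclin D1, with 28.8 TPM, Tk1, the thymidine kinase of the salvage pathway, with 16.4 TPM, and Mcm10 with 15.5 TPM. Together these 4 held between 56.1% and 71.3% of the summed TPM of all 39 genes in a liver. By counts, 19 genes had a mean under 50 and 11 had fewer than 10 counts in at least 1 library. Plk1 and Bub1 were at 0 in at least 1 library, and 6 genes were at or under 3 counts in at least 1. All 39 still passed the filter on low counts, with 14781 genes in all.

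**Figure D1:**
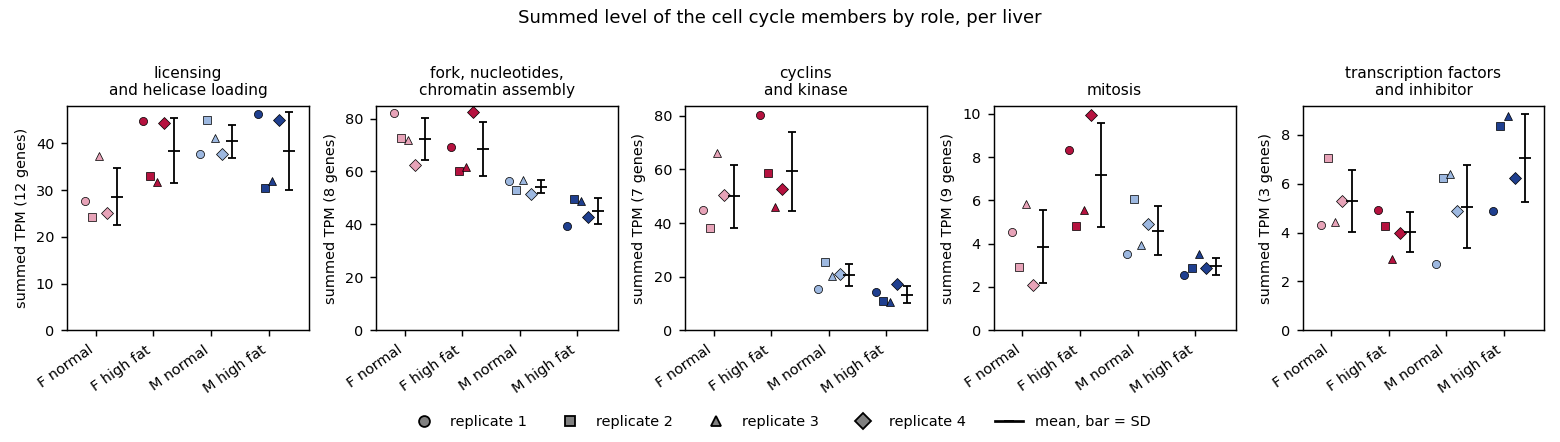
Summed TPM of the members of each role in each liver (points, by replicate number) with the mean and SD of each group of 4, on axes that start at 0. The 7 cyclin and kinase genes summed to between 38.4 and 80.2 TPM in the 8 females and between 10.5 and 25.5 TPM in the 8 males, and the 9 mitosis genes had their highest sum, 9.96 TPM, in a female on the high fat diet.

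Promoter sequence is shown for 5 genes that were called in at least 1 comparison and hold examples of the letters searched: Mki67 and Top2a of mitosis, Cdk1 and Ccnb1 of the kinase that starts it, and Mcm6 of the helicase. They were chosen after their values were seen. Each line gives the 150 bases before the start of the gene, read 5′ to 3′ from the RefSeq promoter table on build GRCm38.p6. Capitals mark 3 kinds of letters, searched on both strands: E2F letters (TTTCCCGC, TTTGGCGC, TTTCGCGC or TTTGCCGC), the cell cycle homology region or CHR (TTTGAA or TTCGAA), to which DREAM and B-MYB complexes bind, and the CCAAT box (CCAAT), bound by NF-Y. The positions are chr7:135716380-135716529, minus strand for Mki67, chr11:99024190-99024339, minus strand for Top2a, chr10:69352913-69353062, minus strand for Cdk1, chr13:100786487-100786636, minus strand for Ccnb1 and chr1:128359706-128359855, minus strand for Mcm6.
Mki67: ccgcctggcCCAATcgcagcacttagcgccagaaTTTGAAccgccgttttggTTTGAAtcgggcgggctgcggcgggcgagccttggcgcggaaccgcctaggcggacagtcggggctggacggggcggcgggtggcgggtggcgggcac
Top2a: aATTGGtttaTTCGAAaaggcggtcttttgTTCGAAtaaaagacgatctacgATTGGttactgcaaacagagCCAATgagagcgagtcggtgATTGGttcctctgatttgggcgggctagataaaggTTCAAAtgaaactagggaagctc
Cdk1: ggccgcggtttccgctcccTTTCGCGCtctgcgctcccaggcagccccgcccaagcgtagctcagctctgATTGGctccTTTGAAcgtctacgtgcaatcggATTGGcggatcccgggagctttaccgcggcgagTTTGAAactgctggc
Ccnb1: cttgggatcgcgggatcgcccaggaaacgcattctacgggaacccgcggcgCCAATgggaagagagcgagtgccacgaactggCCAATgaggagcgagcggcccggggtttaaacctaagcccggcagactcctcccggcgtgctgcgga
Mcm6: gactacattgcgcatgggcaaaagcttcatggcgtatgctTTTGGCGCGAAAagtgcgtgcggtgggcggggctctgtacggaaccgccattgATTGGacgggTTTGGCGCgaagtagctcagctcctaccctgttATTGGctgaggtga
In these stretches Mki67 held 2 CHR matches and 1 CCAAT box, and Top2a held 3 CHR matches and 4 CCAAT boxes. Cdk1 held 1 E2F match, 2 CHR matches and 2 CCAAT boxes. Mcm6 held 3 E2F matches, 2 of which overlap each other, and 2 CCAAT boxes, and Ccnb1 held 2 CCAAT boxes and neither of the other kinds.

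Of the 39 genes, 31 had an entry in the promoter table. In the full window of 300 bases, from 250 before to 50 after the start, E2F letters were present in 8 of the 31 (25.8%), against 2.61% of 27025 genes in the table. CHR letters were present in 12 (38.7%, against 21.7% of all genes) and CCAAT boxes in 22 (71.0%, against 41.1%). Confined to the 150 bases before the start, the shares were 12.9% against 1.44% for E2F, 16.1% against 11.2% for CHR and 67.7% against 27.7% for CCAAT. A match describes the letters only, and a gene without one may hold other forms of the same site.

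On the high fat diet, 5 of the 39 genes changed in females and 5 in males, at a Benjamini-Hochberg adjusted p under 0.05 over all tested genes. In females Mki67, the proliferation marker Ki-67, rose, and Rrm2, Ccne1, Ccne2 and Cdkn1a fell. In males Ccne1, Ccne2, Cdk1, Cdc45 and Tk1 fell and none rose. The share was 12.8% in each sex, beside 11.5% of all tested genes in females (5.74% higher and 5.76% lower) and 11.4% in males (6.03% higher and 5.36% lower), so by number alone the members stood near the background. In females the 2 diets did not overlap for 6 members, 2 of them above and 4 below their level on the normal diet, beside 8.71% and 9.55% of all genes (18.3% either way). In males they did not overlap for 1 higher and 7 lower members, beside 9.32% and 9.13% of all genes (18.5% either way).

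The median log2 fold change over the 39 genes was 0.19 in females, with 27 above 0, and -0.40 in males, with 32 below 0. Over all tested genes the medians were 0.0019 and 0.011. The difference of the 2 diet changes (females minus males, the interaction) had a median of 0.61 over the members and -0.0062 over all genes. These contrasts share libraries and are given side by side. These counts moved with single livers: in females 1 to 3 members were called without female normal diet replicate 1, 2 or 4 or female high fat diet replicate 1, 2 or 4, and in males 3 without male normal diet replicate 2 or male high fat diet replicate 1 or 4.

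**Figure D2:**
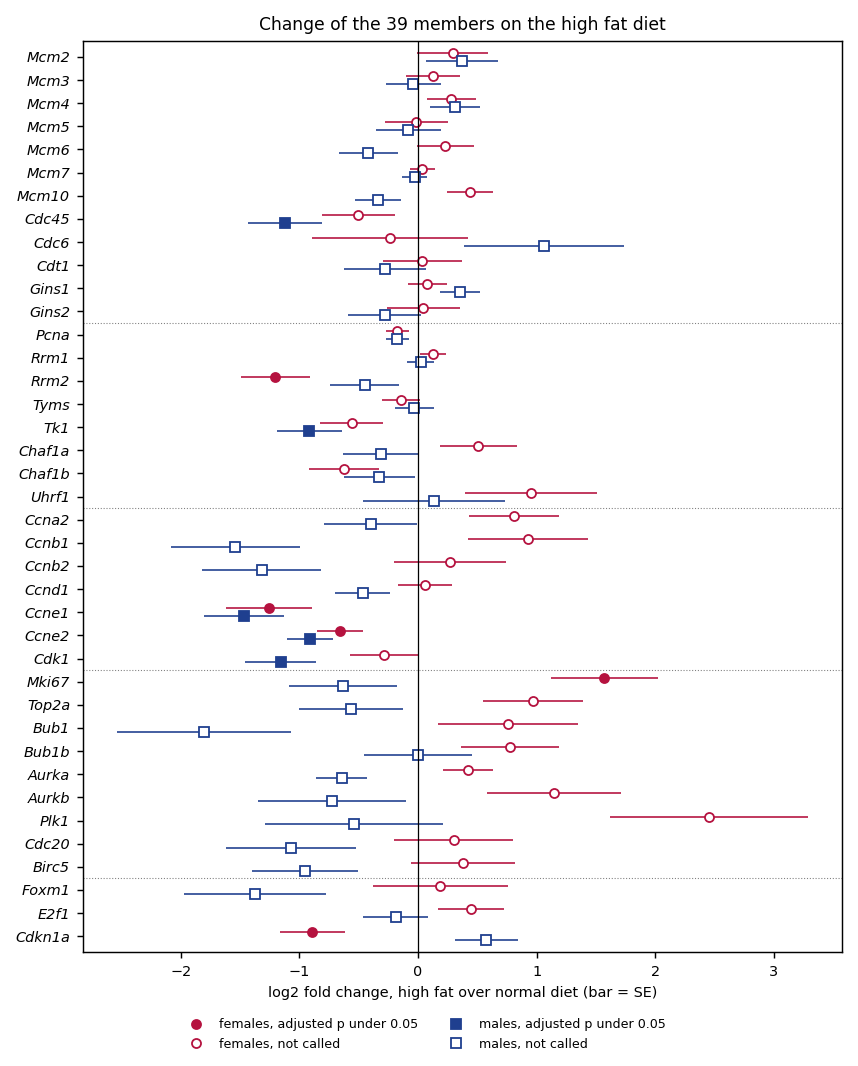
Log2 fold change of each of the 39 members on the high fat diet over the normal diet, in females (circles) and males (squares), with bars of 1 SE and filled symbols at an edgeR adjusted p under 0.05; dotted lines part the roles. In the mitosis block all 9 female values lie above 0 and all 9 male values below it with edgeR's scaling, 1 of them at only -0.00046. On the TPM scales 1 of the 9 male values was above 0. Ccne1 and Ccne2 lie below 0 in both sexes.

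The 12 licensing and helicase genes gave 1 call with diet by edgeR. In females none passed the test of edgeR, 1 had an unadjusted p under 0.05, DESeq2 called 0, limma on both TPM scales called Mcm10 higher, and the log2 fold changes ran from -0.51 to 0.44. In males Cdc45, which joins the helicase at the firing origin, fell and the other 11 did not pass. Cdc45 read 1.48, 1.88, 1.12 and 1.16 CPM (counts per 1000000 of the scaled library) in replicates 1 to 4 of the males on the normal diet and 0.372, 0.815, 0.825 and 0.576 CPM on the high fat diet. All 4 values on the high fat diet were below the lowest on the normal diet (log2 fold change -1.12 ± 0.31 SE, edgeR adjusted p = 0.0264), 2.17-fold lower. In females Cdc45 read 0.890, 1.41, 1.35 and 0.836 CPM on the normal and 0.665, 1.03, 0.636 and 0.824 CPM on the high fat diet, with overlap (log2 fold change -0.51 ± 0.31 SE, edgeR adjusted p = 0.303). The call in males was lost without male normal diet replicate 1 or 2 or male high fat diet replicate 1 or 4 (edgeR adjusted p = 0.0543 to 0.0838).

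Mcm2, a subunit of the helicase ring, is an example of the genes that did not pass any test. It read 2.04, 1.62, 5.09 and 2.38 CPM in females on the normal diet and 4.56, 2.94, 2.66 and 3.37 CPM on the high fat diet. In males it read 1.98, 2.71, 2.38 and 3.19 CPM with normal and 3.34, 2.75, 2.75 and 4.56 CPM with high fat food. The groups overlapped in both sexes, and the single highest value was replicate 3 of the females on the normal diet. The intervals of the diet change ran from -0.29 to 0.88 in females and from -0.22 to 0.96 in males (95%, log2), so these data cannot tell such changes from none. Mcm3, Mcm4 and Mcm5, also of the ring, lay between 2.68 and 6.77 CPM, 3.25 and 7.70 CPM, and 1.12 and 4.24 CPM, and passed no test of edgeR with all 16 libraries. The same held for Cdt1, between 0.576 and 1.90 CPM, and Gins2 of the GINS complex, between 2.24 and 6.54 CPM. Mcm3 was called higher in females than in males on the high fat diet by limma on both TPM scales and by edgeR without female normal diet replicate 4, and Cdt1 was so called by edgeR without male high fat diet replicate 1. Mcm7, the last subunit of the ring, had the narrowest range of the role and lay between 8.49 and 11.1 CPM in all 16 livers. Gins1, a GINS subunit, was higher in all 4 males on the high fat diet than in any on the normal diet (log2 fold change 0.36 ± 0.17 SE, edgeR adjusted p = 0.182), which did not pass the test. Cdc6, with 1 to 16 counts per library, had the widest interval of the role in males, from -0.26 to 2.39.

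Mcm10, a factor that helps to start the fork, differed between the sexes on both diets. It read 30.0, 25.5, 31.0 and 24.2 CPM in females on the normal diet and 88.8, 84.0, 70.8 and 82.3 CPM in males. Every female was below every male, 2.95-fold lower (log2 fold change -1.56 ± 0.20 SE, edgeR adjusted p = 6.35e-05). On the high fat diet it read 54.6, 28.3, 31.3 and 35.4 CPM in females and 86.7, 48.7, 52.1 and 71.1 CPM in males, and female replicate 1 lay above male replicates 2 and 3. The difference passed the test there too (log2 fold change -0.79 ± 0.20 SE, edgeR adjusted p = 0.00993). This call was lost with limma on log2(TPM + 1) and log2(TPM + 0.1) (limma adjusted p = 0.115 and 0.119) and with the 2 groups fitted alone (edgeR adjusted p = 0.0682). The change of the sex difference with diet did not pass the test (0.77 ± 0.28 SE, unadjusted p = 0.0123, edgeR adjusted p = 0.248).

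Mcm6, another subunit of the ring, was higher in females than in males on the high fat diet. It read 6.59, 6.22, 5.98 and 9.30 CPM in females and 5.39, 3.73, 2.65 and 4.07 CPM in males on that diet, and the groups did not overlap (log2 fold change 0.83 ± 0.25 SE, edgeR adjusted p = 0.0246). On the normal diet it read 6.08, 4.57, 8.60 and 4.79 CPM in females and 3.79, 5.99, 6.83 and 4.55 CPM in males, with overlap (log2 fold change 0.18 ± 0.24 SE, edgeR adjusted p = 0.655). The interaction was 0.65 ± 0.35 SE, unadjusted p = 0.0777, edgeR adjusted p = 0.452. The call was lost without female high fat diet replicate 4 or male high fat diet replicate 2, 3 or 4, and with male replicates 2 and 3 averaged (edgeR adjusted p = 0.0543 to 0.0882).

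Among the 8 genes of the fork, nucleotide supply and chromatin assembly, Rrm2 fell in females and Tk1 fell in males. Rrm2 is the small subunit of ribonucleotide reductase, which makes the deoxynucleotides of S phase. In females it read 10.3, 8.37, 7.39 and 9.09 CPM on the normal diet and 4.38, 2.75, 3.81 and 4.32 CPM on the high fat diet. No values overlapped, and the level was 2.30-fold lower (log2 fold change -1.20 ± 0.29 SE, edgeR adjusted p = 0.0141). This was the only female call that held under all 24 alternatives run. In males Rrm2 read 8.07, 5.68, 10.1 and 5.87 CPM with normal and 2.97, 7.23, 8.18 and 3.14 CPM with high fat food, with replicates 1 and 4 low on the high fat diet and replicates 2 and 3 level with the normal diet (log2 fold change -0.45 ± 0.29 SE, edgeR adjusted p = 0.331).

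Males on the normal diet read 19.2, 12.1, 14.0 and 13.5 CPM for Tk1, and their values were 4.35, 10.2, 10.8 and 5.67 CPM on the high fat diet. The groups did not overlap (log2 fold change -0.92 ± 0.28 SE, edgeR adjusted p = 0.0431), and again replicates 1 and 4 were the lowest. The call was lost in 14 of 24 alternatives, with edgeR's adjusted p reaching 0.139. Among these were the fits without any one male normal diet replicate, or without replicate 1 or 4 of the other male group, where it ran from 0.0504 to 0.121. In females Tk1 read 34.3, 26.9, 20.4 and 16.8 CPM on the normal and 14.3, 14.3, 18.1 and 20.1 CPM on the high fat diet, and the groups overlapped (log2 fold change -0.56 ± 0.27 SE, edgeR adjusted p = 0.188). Tk1 was 2.14-fold higher in females than in males on the high fat diet (log2 fold change 1.10 ± 0.28 SE, edgeR adjusted p = 0.0117), a call that held under all 24 alternatives. On the normal diet Tk1 was higher in females too (log2 fold change 0.74), without passing edgeR's test with all 16 libraries. DESeq2 called it there, as did edgeR with the 2 groups fitted alone. So did edgeR without female normal diet replicate 4, male normal diet replicate 1 or male high fat diet replicate 1. Its interaction did not pass (0.36 ± 0.38 SE, unadjusted p = 0.367, edgeR adjusted p = 0.748).

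Pcna had the highest mean TPM of the 39 genes and the narrowest errors. It read 41.5, 40.3, 34.7 and 35.1 CPM in females on the normal diet and 35.9, 29.8, 30.1 and 38.4 CPM on the high fat diet. In males it read 31.9, 31.6, 30.3 and 30.3 CPM with normal and 26.3, 28.7, 27.7 and 27.2 CPM with high fat food. Neither diet change passed the test (log2 fold change -0.18 ± 0.10 SE, edgeR adjusted p = 0.250 in females; log2 fold change -0.17 ± 0.10 SE, edgeR adjusted p = 0.254 in males), although the male groups did not overlap. Pcna was higher in females than in males on the normal diet (log2 fold change 0.29 ± 0.10 SE, edgeR adjusted p = 0.0493) and on the high fat diet (log2 fold change 0.29 ± 0.10 SE, edgeR adjusted p = 0.0427), without overlap on either. Both calls sat close to the threshold and were lost in 13 and 10 of 24 alternatives. Without any one library of the groups compared other than female normal diet replicate 3 or 4, or female high fat diet replicate 2 or 3, each was lost.

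The other 5 genes of this role did not pass any of the 5 tests of edgeR with all 16 libraries. Tyms was called higher in females than in males on the high fat diet by limma on both TPM scales. Leaving out 1 library, edgeR called Tyms (without male replicate 1 or female replicate 4 of that diet, or female replicate 1 of the other) and Chaf1a (without female normal diet replicate 3) between the sexes on the normal diet, and Uhrf1 between the sexes with high fat (without male high fat diet replicate 1). Rrm1, the large reductase subunit, kept between 9.96 and 14.6 CPM in all 16 livers, beside the fall of its partner Rrm2 in females. Tyms, which makes thymidylate, lay between 4.88 and 9.12 CPM. Chaf1a and Chaf1b, subunits of the histone chaperone behind the fork, lay between 0.405 and 2.68 CPM and between 0.636 and 2.38 CPM. Uhrf1, which carries DNA methylation through replication, lay between 0.170 and 1.73 CPM, with its highest value in female high fat diet replicate 4.

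The cyclins and Cdk1 had the highest share called with diet in males among the roles. In males all 7 had a negative diet change, with a median of -1.16. Of the 7, 3 passed the test (42.9%, beside 11.4% of all tested genes). The sign held for all 7 under each alternative run in males, apart from genes that failed a filter. In females 4 were above 0 and 3 below, with 2 called (28.6%, beside 11.5% of all tested genes).

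Ccne1 and Ccne2, the E cyclins that bring the cell into S phase, fell in both sexes. Ccne1 read 1.45, 1.04, 1.28 and 1.29 CPM in females on the normal diet and 0.604, 0.430, 0.636 and 0.432 CPM on the high fat diet, 2.39-fold lower (log2 fold change -1.26 ± 0.36 SE, edgeR adjusted p = 0.0320). In males it read 3.13, 2.80, 2.12 and 2.63 CPM with normal and 1.97, 0.441, 0.653 and 0.797 CPM with high fat food, 2.77-fold lower (log2 fold change -1.47 ± 0.34 SE, edgeR adjusted p = 0.00960). Neither sex had overlapping groups, and male high fat diet replicate 1 lay nearest to the normal diet. On the normal diet Ccne1 was 2.11-fold lower in females than in males (log2 fold change -1.08 ± 0.33 SE, edgeR adjusted p = 0.0338), without overlap. The male diet call held under all 24 alternatives. The female call was lost without female normal diet replicate 1, 3 or 4 or female high fat diet replicate 1, 2 or 4 (edgeR adjusted p = 0.0508 to 0.0885), and with limma on log2(TPM + 1) (limma adjusted p = 0.0669). The call between the sexes was lost without any one female or male normal diet replicate except male replicate 3 (edgeR adjusted p = 0.0618 to 0.106).

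Ccne2 read 7.15, 5.95, 5.12 and 6.69 CPM in females on the normal diet and 3.93, 4.27, 4.45 and 3.14 CPM on the high fat diet. In males it read 10.0, 5.11, 6.35 and 9.37 CPM with normal and 4.35, 3.84, 4.19 and 4.03 CPM with high fat food. All 8 values on the high fat diet were at or under 4.45 CPM and all 8 on the normal diet at or above 5.11 CPM. The change was log2 fold change -0.66 ± 0.19 SE, edgeR adjusted p = 0.0348 in females and log2 fold change -0.91 ± 0.19 SE, edgeR adjusted p = 0.00548 in males. The male call held under all 24 alternatives, and the female call was lost without female normal diet replicate 1, 2 or 4 or female high fat diet replicate 1 or 4 (edgeR adjusted p = 0.0643 to 0.110). The female call was also lost with limma on log2(TPM + 1) and log2(TPM + 0.1) (log2 fold change -0.29 and -0.39, limma adjusted p = 0.126 and 0.118). The diet change of neither E cyclin was shown to differ between the sexes (0.21 ± 0.50 SE, unadjusted p = 0.680, edgeR adjusted p = 0.906 for Ccne1; 0.25 ± 0.27 SE, unadjusted p = 0.364, edgeR adjusted p = 0.747 for Ccne2).

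Cdk1, the kinase that starts mitosis, fell in males. It read 1.89, 2.63, 2.51 and 2.11 CPM on the normal diet and 0.706, 1.05, 0.687 and 1.68 CPM on the high fat diet, 2.23-fold lower and without overlap (log2 fold change -1.16 ± 0.30 SE, edgeR adjusted p = 0.0182). The call was lost only without male high fat diet replicate 3 (edgeR adjusted p = 0.0614) among the 24 alternatives. In females it read 1.82, 2.42, 2.89 and 1.17 CPM with normal and 1.81, 1.52, 1.61 and 1.81 CPM with high fat food, with all 4 values on the high fat diet inside the range of the normal diet (log2 fold change -0.29 ± 0.29 SE, edgeR adjusted p = 0.553).

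Ccnb1, the cyclin B1 partner of Cdk1, had opposite signs in the sexes without passing edgeR's test in either. DESeq2 called it lower with diet in males, as did edgeR without female normal diet replicate 4 or male normal diet replicate 1. It read 0.556, 0.582, 0.951 and 0.127 CPM in females on the normal and 0.755, 0.695, 1.08 and 1.65 CPM on the high fat diet (log2 fold change 0.93 ± 0.51 SE, edgeR adjusted p = 0.247). The male livers read 0.329, 1.63, 0.562 and 0.974 CPM with normal and 0.260, 0.306, 0.378 and 0.266 CPM with high fat food (log2 fold change -1.54 ± 0.54 SE, edgeR adjusted p = 0.0733). The groups overlapped in each sex. Every female on the high fat diet was above every male there, 3.39-fold higher (log2 fold change 1.76 ± 0.54 SE, edgeR adjusted p = 0.0283), a call that was lost without female high fat diet replicate 4 or male high fat diet replicate 1, 2 or 4 (edgeR adjusted p = 0.0576 to 0.0934). Ccnb2, the other B cyclin, had a male diet change of -1.32 ± 0.50 SE (edgeR adjusted p = 0.0980), and Ccna2, the S phase cyclin A2, one of -0.40 ± 0.39 SE (edgeR adjusted p = 0.547). On the high fat diet Ccna2 was called higher in females than in males by DESeq2, limma on log2(TPM + 1) and edgeR without a filter. EdgeR also called it so without replicate 3 of either female group or male normal diet replicate 1 or 2. Limma on log2(TPM + 0.1) so called Ccnb2.

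Ccnd1 had the smallest adjusted p of the 39 genes between the sexes on each diet. It read 122, 103, 162 and 136 CPM in females on the normal diet and 191, 134, 108 and 111 CPM on the high fat diet. Males on these diets had 21.4, 44.7, 37.3 and 35.3 CPM with normal and 26.8, 20.7, 20.1 and 32.9 CPM with high fat food. The lowest female value, 103 CPM, was above the highest male value, 44.7 CPM. Females were 3.76-fold higher on the normal diet (log2 fold change 1.91 ± 0.24 SE, edgeR adjusted p = 5.59e-05) and 5.42-fold higher on the high fat diet (log2 fold change 2.44 ± 0.24 SE, edgeR adjusted p = 4.61e-06), and both calls held under all 24 alternatives. Neither diet change passed the test (log2 fold change 0.06 ± 0.23 SE, edgeR adjusted p = 0.899 in females; log2 fold change -0.47 ± 0.23 SE, edgeR adjusted p = 0.202 in males), and neither did the interaction (0.53 ± 0.32 SE, unadjusted p = 0.123, edgeR adjusted p = 0.532).

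**Figure D3:**
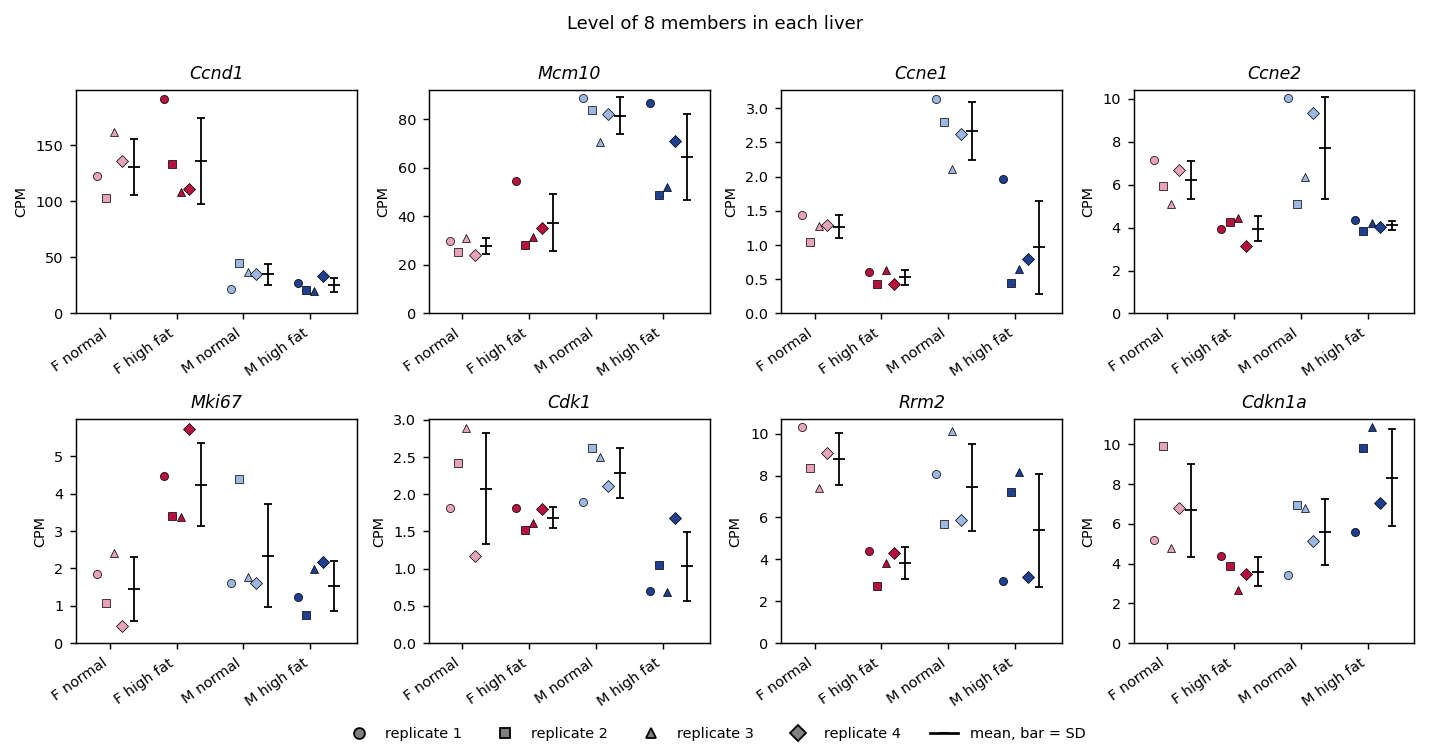
CPM of 8 members in each liver (points, by replicate number) with the mean and SD of each group of 4, on axes that start at 0. Ccnd1 separates the sexes (103 CPM or more in females, 44.7 CPM or less in males), Ccne1 and Ccne2 separate the diets within each sex, and Mki67 reads 3.37 to 5.73 CPM in the females on the high fat diet, above all females on the normal diet.

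The 9 mitosis genes had diet changes of opposite sign in the sexes, mostly short of the threshold for single genes. In females all 9 had a positive log2 fold change (median 0.78) and 1 passed the test. In males all 9 had a negative one (median -0.65), though 1 of them, at -0.00046, was next to 0. None of the 9 passed in males, with 3 at an unadjusted p under 0.05 by edgeR and 1, Aurka, called by DESeq2. The female count was 9 of 9 in all alternatives but the fit of the 2 groups alone, where 7 of the 9 were tested and all 7 were above 0, and in males 1 of the 9 came out above 0 without a filter and with limma on log2(TPM + 1) or log2(TPM + 0.1), and 2 without male normal diet replicate 2. On the TPM scales the median over all genes was itself shifted in females, by 0.15 and 0.22. Relative to it, 8 of the 9 were above on log2(TPM + 1) and 9 on log2(TPM + 0.1), with medians 0.18 and 0.63 above it. In females limma also called Aurka and Plk1 higher on both TPM scales and Top2a on log2(TPM + 1). The female median fell to 0.54 without female normal diet replicate 4 and rose to 1.27 without female normal diet replicate 3.

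Mki67, a protein of the nucleus of cycling cells, read 1.85, 1.07, 2.42 and 0.456 CPM in females on the normal diet and 4.47, 3.41, 3.37 and 5.73 CPM on the high fat diet. All 4 values on the high fat diet were above the highest on the normal diet, 2.97-fold higher (log2 fold change 1.57 ± 0.45 SE, edgeR adjusted p = 0.0336). The males had 1.61, 4.39, 1.77 and 1.60 CPM with normal and 1.23, 0.747, 1.99 and 2.17 CPM with high fat food, with overlap (log2 fold change -0.63 ± 0.46 SE, edgeR adjusted p = 0.399). The difference between the diet changes did not pass the test of edgeR (2.20 ± 0.64 SE, unadjusted p = 0.00322, edgeR adjusted p = 0.139) and passed that of DESeq2 (2.20, adjusted p = 0.0227). The female call was lost without female normal diet replicate 1, 2 or 4 or female high fat diet replicate 1 or 4 (edgeR adjusted p = 0.0539 to 0.0960), and without a filter on low counts (0.101). On the high fat diet Mki67 was 2.78-fold higher in females than in males (log2 fold change 1.47 ± 0.45 SE, edgeR adjusted p = 0.0297), which was lost without female replicate 1 or 4 or male replicate 1 or 2 of that diet (edgeR adjusted p = 0.0641 to 0.0818).

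Top2a, the topoisomerase that unlinks sister chromosomes, read 2.67, 1.20, 3.00 and 0.912 CPM in females on the normal diet and 4.11, 2.65, 2.99 and 5.34 CPM on the high fat diet. The male livers read 0.824, 2.85, 2.12 and 2.14 CPM with normal and 1.64, 0.679, 0.996 and 2.17 CPM with high fat food. Neither diet change passed (log2 fold change 0.97 ± 0.42 SE, edgeR adjusted p = 0.143 in females; log2 fold change -0.56 ± 0.44 SE, edgeR adjusted p = 0.440 in males). Top2a on the high fat diet was 2.78-fold higher in females than in males without overlap (log2 fold change 1.47 ± 0.43 SE, edgeR adjusted p = 0.0241). Aurka, the spindle pole kinase, read 1.59, 1.20, 1.94 and 1.24 CPM with normal and 1.72, 1.95, 2.21 and 2.08 CPM with high fat food in females, and 1.89, 1.94, 1.86 and 1.87 CPM with normal and 1.19, 1.46, 1.27 and 0.885 CPM with high fat food in males. The male groups did not overlap, with every value on the high fat diet lower, but the change did not pass edgeR's test (log2 fold change -0.65 ± 0.21 SE, edgeR adjusted p = 0.0579). Aurka was 1.64-fold higher in females than in males on the high fat diet (log2 fold change 0.72 ± 0.21 SE, edgeR adjusted p = 0.0243). Without single livers of that diet these sex calls were lost, that of Top2a without female 1 or 4 or male 2 or 3 (edgeR adjusted p = 0.0561 to 0.0740) and that of Aurka without female 3 or 4 or male 4 (0.0511 to 0.0800).

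Bub1, a kinase of the spindle checkpoint, had 0 to 22 counts per library. On the high fat diet it read 0.362, 0.364, 0.150 and 0.863 CPM in females and 0.149, 0, 0.0687 and 0.0885 CPM in males (log2 fold change 2.46 ± 0.71 SE, edgeR adjusted p = 0.0202), and on the normal diet 0.297, 0.245, 0.366 and 0.127 CPM in females and 0.494, 0.200, 0.130 and 0.271 CPM in males. Its call on the high fat diet was lost without female replicate 4 or male replicate 2 (edgeR adjusted p = 0.0837 and 0.0533), and Bub1 overlapped on the normal diet. Plk1, the mitotic polo kinase, was at 0 counts in 2 of the 4 females on the normal diet and had 0.187 to 0.942 CPM in the females on the high fat diet, which did not overlap. Its fitted change of 2.45 ± 0.83 SE did not pass (edgeR adjusted p = 0.0640; called by DESeq2). The remaining mitosis genes, Bub1b of the checkpoint, Aurkb and Birc5 of the chromosomal passenger complex and Cdc20, which activates the anaphase ligase, passed none of the 5 tests of edgeR and lay between 0.0760 and 1.73 CPM. DESeq2, and limma on both TPM scales, called Aurkb higher in females than in males on the high fat diet. Leaving out 1 liver, edgeR called Aurkb in that comparison too (without female normal diet replicate 4 or female high fat diet replicate 2 or 3), Cdc20 likewise (without female high fat diet replicate 3), and Bub1b with diet in females (without female normal diet replicate 3).

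Macrophage markers were higher beside the mitosis genes in females on the high fat diet. All 7 had a positive diet change there and 4 passed the test (57.1%, beside 11.5% of all tested genes). Among these 4 were Cd68 (log2 fold change 0.90 ± 0.16 SE, edgeR adjusted p = 0.00193) and Csf1r (0.60 ± 0.16 SE, edgeR adjusted p = 0.0183). The summed level of the 7 markers ran from 167 to 258 TPM in females on the normal diet and read 579, 392, 356 and 751 TPM in replicates 1 to 4 on the high fat diet. Replicates 4 and 1 of that group were also the highest and the next highest for summed mitosis genes (9.96 and 8.34 TPM) and for Mki67. In males the macrophage sum ran from 150 to 258 TPM on the normal diet and from 184 to 294 TPM on the high fat diet. The male mitosis sum ran from 3.54 to 6.05 TPM and from 2.55 to 3.52 TPM on these diets. Among females on the normal diet, replicate 2 had the highest macrophage sum (258 TPM), with a mitosis sum of 2.93 TPM. Replicate 3 of that group had the highest mitosis sum (5.85 TPM), and replicate 4 was the lowest for both. Among males on the normal diet, replicate 2 was the highest for both sums. With high fat the order was reversed: male replicate 1 had the highest macrophage and the lowest mitosis sum, and male replicate 3 the lowest and the highest. No macrophage marker was at 0 in any library. The part of these cells in the mitosis values was not tested.

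Among the transcription factors and the inhibitor, Cdkn1a fell in females. It encodes p21, a brake on cyclin-dependent kinases. It read 5.19, 9.93, 4.79 and 6.81 CPM in females on the normal diet and 4.38, 3.87, 2.66 and 3.49 CPM on the high fat diet, without overlap (log2 fold change -0.89 ± 0.27 SE, edgeR adjusted p = 0.0418). Males on these diets had 3.42, 6.96, 6.83 and 5.14 CPM with normal and 5.57, 9.84, 10.9 and 7.04 CPM with high fat food, with overlap and the opposite sign (log2 fold change 0.58 ± 0.27 SE, edgeR adjusted p = 0.169). Every female on the high fat diet was below every male there, 2.31-fold lower (log2 fold change -1.21 ± 0.27 SE, edgeR adjusted p = 0.00543), and this held under all 24 alternatives. The female diet call was lost in 12 of 24 alternatives, among them the fits without any one female replicate except normal diet replicate 3, with edgeR's adjusted p reaching 0.167. The interaction was -1.47 ± 0.38 SE, unadjusted p = 0.00120, edgeR adjusted p = 0.0889, and DESeq2 called it (-1.46, adjusted p = 0.0149).

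Foxm1, the factor that drives genes of G2 and mitosis, had 2 to 30 counts per library. It read 0.556, 0.153, 0.293 and 0.253 CPM in females on the normal and 0.362, 0.430, 0.337 and 0.275 CPM on the high fat diet. The males had 0.165, 0.856, 0.0864 and 0.677 CPM with normal and 0.186, 0.102, 0.206 and 0.221 CPM with high fat food. Neither change passed (log2 fold change 0.19 ± 0.57 SE, edgeR adjusted p = 0.865 in females; log2 fold change -1.37 ± 0.60 SE, edgeR adjusted p = 0.145 in males), and male normal diet replicates 2 and 4 stood above the other males. E2f1, an activating E2F factor, lay between 0.836 and 3.20 CPM and passed none of the 5 tests of edgeR; DESeq2 called it lower in females than in males on the normal diet.

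No member passed edgeR's test of the interaction, beside 0.677% of all tested genes (0.264% with the female change the higher and 0.413% with it the lower). At an unadjusted p under 0.05 there were 12 of the 39, beside 13.0% of all genes. They were 7 of the 9 mitosis genes, 3 of the 7 cyclin and kinase genes, Mcm10 and Cdkn1a. DESeq2 called 3 members, Mki67, Aurka (1.08, adjusted p = 0.0459) and Cdkn1a. Without male high fat diet replicate 1, edgeR called 1, Cdkn1a (-1.60, adjusted p = 0.0443).

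Between the sexes, 4 members differed on the normal diet (10.3%, beside 15.7% of all genes) and 11 on the high fat diet (28.2%, beside 20.4%). On the normal diet Ccnd1 and Pcna were higher in females and Mcm10 and Ccne1 lower, beside 7.03% and 8.68% of all genes. With high fat 9 were higher in females, beside 8.84% of all genes: Ccnd1, Tk1, Bub1, Top2a, Aurka, Mcm6, Ccnb1, Mki67 and Pcna. The other two, Cdkn1a and Mcm10, were lower, as were 11.6% of all genes. In the same comparison all 7 macrophage markers were above 0 (median 0.75) and 4 were called higher in females (57.1%, beside 8.84% of all genes). Of 5 T and B cell markers tested, 4 were above 0 (median 1.17), with 1 called higher and 1 lower. Of 5 bile duct cell markers, 3 were above 0 (median 0.68), with 2 called higher and 1 lower. Of 5 markers of lipid-associated macrophages, 2 were above 0 (median -0.26), with 1 called higher. The part of these markers' cells in these differences was not tested. The sexes did not overlap for 3 members higher in females and 2 lower on the normal diet, beside 9.86% and 12.2% of all genes (22.0% either way). With high fat they did not overlap for 13, of which 12 were above the males and 1 below, beside 10.3% and 12.4% (22.7% either way). Over the members the median was -0.06 on the normal diet and 0.53 on the high fat diet, beside -0.0020 and -0.010 over all genes.

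The count on the high fat diet rested in part on single livers. It was 4 without female high fat diet replicate 4, 6 without male high fat diet replicate 2 and 7 when the 2 groups were fitted alone. Without female replicate 4, the calls of Mcm6, Ccnb1, Top2a, Bub1, Aurka, Mki67 and Pcna were lost (edgeR adjusted p = 0.0538 to 0.142). On the normal diet the count was 2 without female replicate 1 or 2 or male replicate 2 or 4.

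**Figure D4:**
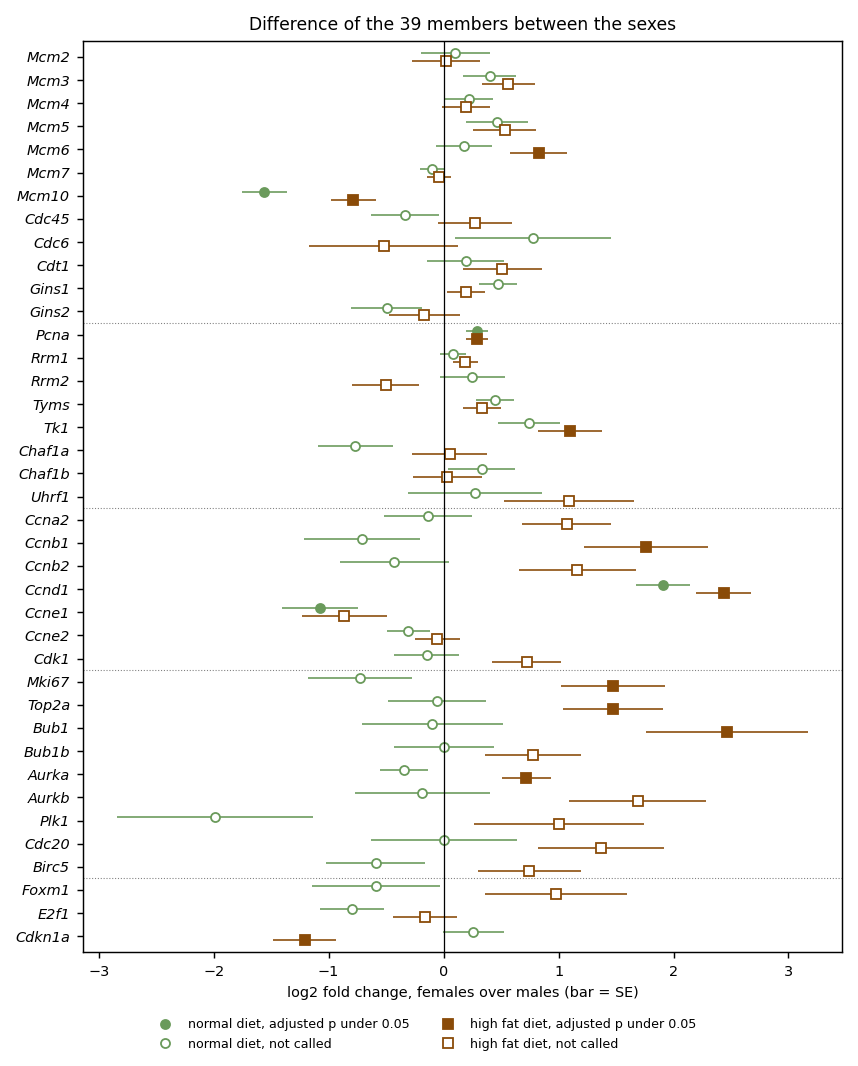
Log2 fold change of each of the 39 members in females over males, on the normal diet (circles) and the high fat diet (squares), with bars of 1 SE and filled symbols at an edgeR adjusted p under 0.05. All 9 mitosis genes lie above 0 on the high fat diet, with 4 filled, while 7 of the 9 lie below 0 on the normal diet and none is filled; Ccnd1 lies far above 0 on both diets and Mcm10 below.

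Single livers stood out across many members within their group. Replicate 3 of the females on the normal diet had the highest value of its group for 24 of the 39 genes, 9 of them licensing genes and 7 mitosis genes. Replicate 4 of the same group had the lowest for 22, 8 of them among the 9 mitosis genes. Among females on the high fat diet, replicate 4 was the highest for 19 and replicate 1 for 13. In males on the normal diet, replicate 2 was the highest for 17.

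**Figure D5:**
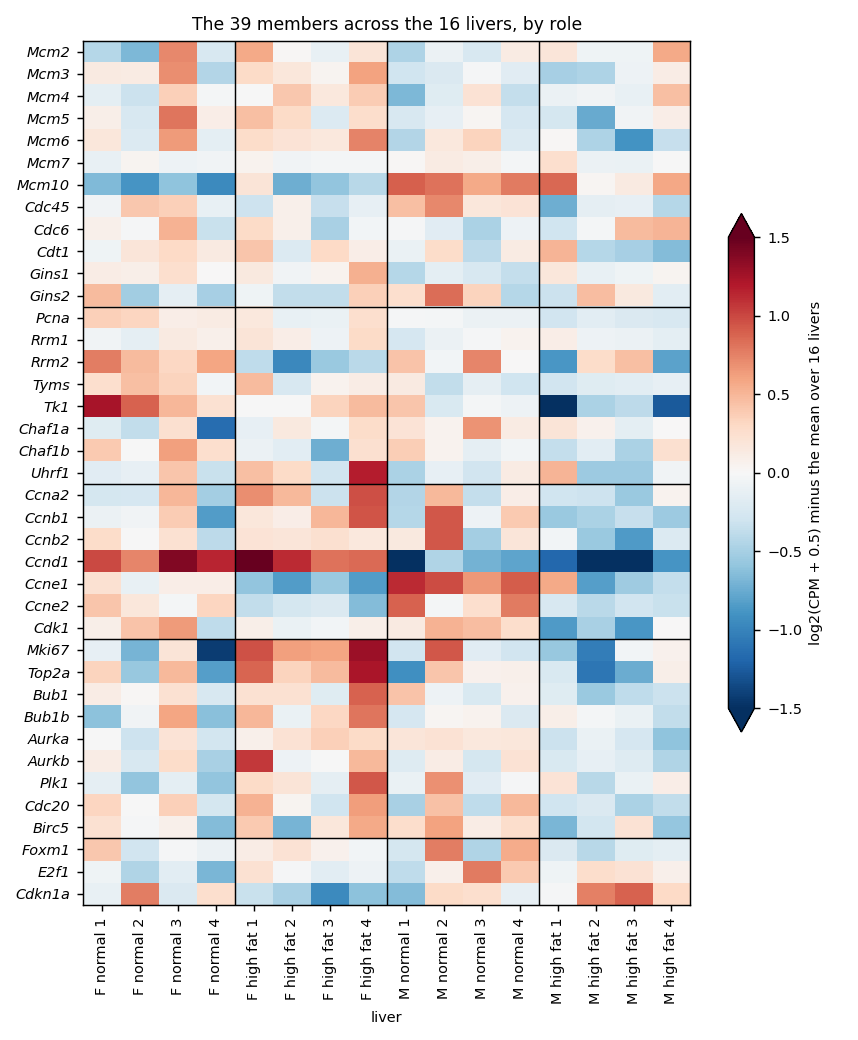
Level of each of the 39 members (rows, by role) in each of the 16 livers (columns, by group and replicate) as log2(CPM + 0.5) minus the gene's mean over the 16 livers, with the colour scale cut at -1.5 and 1.5. Female high fat diet replicate 4, highest of its group for 7 of the 9 mitosis genes, shows as a red column in that block. The Ccnd1 row splits by sex, and the Mcm10 row does so on the normal diet, with overlap on the high fat diet.

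Other genes of the same pathways, from lists that do not include the members, were counted in the same fit. These lists, like the members, were chosen with earlier results of these data known. Of 45 other replication genes, 39 were tested. None changed in females by edgeR (0%, beside 11.5% of all tested genes), with 5 at an unadjusted p under 0.05, beside 27.2% of all genes. In males 2 fell: Dbf4, which activates the origin kinase Cdc7, with 4.98 ± 0.912 CPM on the normal diet and 2.34 ± 0.322 CPM on the high fat diet (SD, n = 4 each), a log2 fold change of -1.09 ± 0.23 SE, edgeR adjusted p = 0.00566, and Atad2 (-0.82 ± 0.20 SE, edgeR adjusted p = 0.0140). These 2 were 5.13% of the list tested, beside 11.4% of all genes. The medians of the list were 0.05 in females and -0.03 in males.

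Of 54 other mitosis genes, 48 were tested. In females 5 rose and none fell, among them Cdc25b, a phosphatase that switches on Cdk1 (log2 fold change 1.78 ± 0.35 SE, edgeR adjusted p = 0.00406), and Cdca8 of the passenger complex (1.54 ± 0.44 SE, edgeR adjusted p = 0.0305). In males 6 fell and none rose, among them Spc25 of the kinetochore, with 13.9 ± 2.08 CPM on the normal diet and 5.99 ± 0.535 CPM on the high fat diet (SD, n = 4 each) (-1.21 ± 0.21 SE, edgeR adjusted p = 0.00120), and the kinase Nek2 (-0.94 ± 0.19 SE, edgeR adjusted p = 0.00348). The shares called were 10.4% in females and 12.5% in males, beside 11.5% and 11.4% of all tested genes, so by number alone near the background. By direction, 5.74% of all genes were called higher in females and 5.36% lower in males. The median was 0.46 in females, with 39 of 48 above 0, and -0.49 in males, with 39 of 48 below 0. None passed edgeR's test of the interaction, beside 0.677% of all tested genes, and 21 of the 48 had an unadjusted p under 0.05, beside 13.0% of all genes. The female count was 1 without female normal diet replicate 1, 2 or 4 or female high fat diet replicate 1 or 4.

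Of 29 G1 regulators found, 27 were tested. In females 2 fell, the repressive factor E2f5 (log2 fold change -0.60 ± 0.12 SE, edgeR adjusted p = 0.00339) and the E2F partner Tfdp2 (-0.55 ± 0.15 SE, edgeR adjusted p = 0.0247). In males 4 fell, among them Lin52, a core subunit of DREAM (-0.55 ± 0.12 SE, edgeR adjusted p = 0.00731), and cyclin D3, Ccnd3 (-0.49 ± 0.11 SE, edgeR adjusted p = 0.00951). The shares of the G1 list called were 7.41% in females and 14.8% in males, beside 11.5% and 11.4% of all tested genes. Of 30 genes of the p53 response and of CDK inhibitors, 27 were tested. In females 7 rose and 2 fell, among them Gadd45a, a stress response gene, with 2.10 ± 0.905 CPM on the normal diet and 8.39 ± 3.60 CPM on the high fat diet (SD, n = 4 each) (2.01 ± 0.32 SE, edgeR adjusted p = 0.00073), and Bbc3, which promotes apoptosis (1.19 ± 0.25 SE, edgeR adjusted p = 0.00543). In males Fas, a death receptor, rose (0.53 ± 0.14 SE, edgeR adjusted p = 0.0189) and Sesn1 fell (-0.46 ± 0.13 SE, edgeR adjusted p = 0.0270). The shares of the p53 list called were 33.3% in females and 7.41% in males, beside 11.5% and 11.4% of all tested genes. Cdkn1a, counted among the members, is not in that list.

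For 13 members, exon bases are shared with another gene in the GENCODE M21 annotation, an older one than that of the files. They are Mcm7, Cdc45, Gins2, Tk1, Chaf1a, Ccna2, Ccnd1, Ccne2, Top2a, Plk1, Cdc20, Foxm1 and Cdkn1a, in most cases with a gene on the other strand. Whether the counting used the strand is not given in the sources used here, so reads of such pairs cannot be told apart with certainty, and the values of these genes carry that limit.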

How the data were processed

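RNA of 16 mouse liver samples was measured by poly(A) RNA-seq, and groups were taken from the sample labels. The authors deposited expected counts and TPM for each gene and library, made with STAR and RSEM on GRCm39 per the submitters' processing notes, with versions not given in the sources used here. Libraries held 22228115 to 41420589 expected counts, and 4.89% of the deposited values were not whole and were rounded. Gene symbols were matched for 51487 of 78317 identifiers, which hold 98.97% of the counts. H2az1 was matched as H2afz and Lin54, of a pathway list, was not matched.

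In R 4.3.3, genes passing filterByExpr (14781, with 99.94% of counts) were scaled by TMM and fitted with edgeR 4.0.16 quasi-likelihood models over all 4 groups, with no covariates, and p-values were adjusted by Benjamini and Hochberg over all tested genes, with a threshold of 0.05. Error intervals are 95%. The same fit was also run on counts simulated from the means and spread of these data, and its outcome is not reported here. TPM values were used for levels and, with limma 3.58.1 on log2(TPM + 1) and log2(TPM + 0.1), as alternatives, beside DESeq2 1.42.0, DESeq2 size factors, no filter, the replicate block, averaging male high fat diet replicates 2 and 3, fitting 2 groups alone and leaving out each library.

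The members and the gene lists were chosen with earlier results of these data known. Values in every library are given for members called in any contrast and for Mki67, Top2a, Cdk1, Ccnd1, Pcna, Mcm2, Foxm1 and Cdkn1a in any case, and ranges for the rest. Of each other list, the 2 called genes with the smallest p in each diet contrast were named, and markers with next to no counts, some of which are not reported here. Replicate numbers were not taken to pair the mice. Deviations of same-numbered libraries correlated between -0.159 and 0.137 across the diets within a sex. Across the sexes on the same diet they correlated weakly, between 0.0215 and 0.180, all above 0. Exon overlaps were read from GENCODE M21, which is of an older build.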

Additional observations from a re-analysis of the deposited data

Results flagged for a closer look

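The CPM of Mki67 in replicate 2 of the males on the normal diet was 4.39, while the other 3 males of that group read 1.61, 1.77 and 1.60. Its gap to the nearest of them took 0.938 of the group's whole range, above Dixon's critical value of 0.829 for 4 samples. It was the only one of 72 sets of 4 libraries, over 18 members, in which a library stood apart in this way, and chance alone gives about 1 in 20.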

How the results depend on the processing

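No called value of a member changed its direction under the alternatives run. Values short of the threshold did: the diet change in females of Ccnd1, Cdk1, Foxm1 and Pcna and the interaction of Mcm2 and Pcna took both signs (for example -0.15 to 0.28 for Ccnd1 and -0.25 to 0.061 for Pcna in females), as did the median of the 39 genes between the sexes on the normal diet (-0.30 to 0.16). Of the counts of calls and promoter shares, 252 alternative values stayed within 1.5 times the main value and 62 moved further. Leaving out 1 library at a time, the members called ranged from 1 to 5 for diet in females, from 3 to 6 for diet in males, from 0 to 1 for the interaction and, between the sexes, from 2 to 5 (normal diet) and 4 to 13 (high fat diet). The other lists ranged, in females and males, from 0 to 2 and 1 to 4 (other replication), 1 to 5 and 4 to 6 (other mitosis), 1 to 3 and 3 to 6 (G1 regulators), and 5 to 9 and 0 to 2 (p53 and CDK inhibitors). Without a filter on low counts, 3 members were called in females and 3 in males, and 2 other mitosis genes in females. Fitting the 2 groups alone gave 3 members in males, 7 between the sexes on the high fat diet and 2 other mitosis genes in females. DESeq2 called 3 members and 341 of all genes for the interaction (edgeR 0 and 100) and 8 G1 regulators in males. With limma on log2(TPM + 1) and log2(TPM + 0.1), females had 5 and 3 other replication genes, 9 and 10 other mitosis genes and 4 and 4 G1 regulators, and males had 1 and 2 G1 regulators and 1 and 1 genes of the p53 list. Over all genes, these 2 scales called 2926 (2644 higher, 282 lower) and 2763 (2487 higher, 276 lower) for diet in females, against 1700 (848 higher, 852 lower) with edgeR. The cause was not tested. The promoter shares fell to 12.9% for E2F and 16.1% for CHR in the 150 bases before the start. With the replicate number as a block, although the numbers were not taken to pair the mice, 4 members were called in females (Mki67 lost) and 4 in males (Tk1 lost). Between the sexes 4 and 10 were called on the normal and the high fat diet (Mki67 lost on the latter), and 0 for the interaction. In the same fit 7 G1 regulators fell in males. Depth limits the low genes: 19 members had a mean under 50 counts.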

Other observations

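Markers of other cell types were counted in the same fit. Of 5 markers of lipid-associated macrophages, 3 rose in females, with Gpnmb at a log2 fold change of 3.47 and Itgax of 1.64, and in males 3 rose, among them Mmp12 (4.20), and Cd9 fell (-0.99). These calls were 60% of the list in females and 80% in males, beside 11.5% and 11.4% of all tested genes. Of 7 hepatocyte markers, Hnf4a fell in both sexes (-0.60 in females and -0.47 in males), Cps1 fell in females (-0.52) and Alb fell in males (-0.50). These calls were 28.6% of that list in each sex, beside 11.5% and 11.4% of all tested genes, and 2 of the 7 were above 0 in each sex. Of 6 stellate cell markers, Col1a1 (1.61) and Des (0.76) rose in females (33.3%, beside 11.5% of all tested genes), with 4 of the 6 above 0 and 2 below. In males all 6 were above 0 and none was called. S100a8 of neutrophils rose in females (2.51), and Krt19 of bile duct cells (-1.52) and Tfrc of erythroid cells (-1.09) fell and Cfd of adipocytes (4.07) rose in males. Each was the only call of its list in that sex, of 2, 5, 6 and 2 markers tested. No T and B cell, endothelial, pancreatic or progenitor marker was called with diet in either sex by edgeR, and at most 1 of each list had an unadjusted p under 0.05 in a sex. Of these lists 5, 5, 1 and 3 markers were tested. The 1 pancreatic marker tested, Cela1, had an unadjusted p under 0.05 in males by edgeR (log2 fold change 0.69). Prss2, Cpa1, Amy2a5 and Ctrb1 failed the filter on low counts, though Amy2a5 reached 360 counts in a library. Among the defining markers, Ly6g of neutrophils had at most 1 count in a library and Lep of adipocytes at most 7. The part of these cell types in the results on cell cycle genes was not tested.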
